A study of Mus musculus with 4 samples.

Results

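Primitive endoderm regulators and markers were followed in mouse embryonic stem (ES) cells with and without KAT6A, a histone acetyltransferase. The set held 9 genes of the 41543 gene symbols counted, all known endoderm transcription factors and markers: Gata6, Gata4, Sox17, Sox7, Foxa2, Hnf4a, Pdgfra, Dab2 and Thbd. They were chosen by name, but with earlier results of these data known. All 9 were found in the count tables and all 9 passed the filter on low counts, as did 16112 genes in all. The cells were E14TG2a, an established mouse ES cell line, grown on gelatin in medium with foetal calf serum and the cytokine LIF. Control cells (2 libraries) were compared with KAT6A KO cells (2 libraries), in which the gene had been disrupted by CRISPR/Cas9 editing. Where the gene was edited, how many clones gave the KO libraries and how the control cells were treated are not stated in the labels. The libraries labelled KAT6A KO replicates 1 and 2 are called KO 1 and KO 2 below and are given apart, because they differed in these genes.

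Primitive endoderm is a lineage that the inner cell mass of the blastocyst forms, beside the epiblast from which ES cells are derived. FGF signalling through ERK pushes inner cell mass cells towards it, GATA6 opposes NANOG in that choice, and PDGFRA, SOX17, GATA4 and SOX7 come on in order as the lineage matures. It then gives rise to visceral endoderm, which surrounds the embryo, and parietal endoderm, which lays down a thick basement membrane. Cultures of ES cells in serum are mixed, and a minority of cells in them express endoderm genes.

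Total counts per library lay between 27494041 and 37354623. Levels are given as CPM, counts scaled to library size. The ES cell genes Pou5f1, Sox2 and Nanog were abundant in each of the 4 libraries, from 415 CPM (Nanog, KO 2) to 1009.7 CPM (Pou5f1, KO 2). Kat6a RNA, at 145 and 143 CPM in the controls, was 242 CPM in KO 1 and 86.4 CPM in KO 2, so it does not check the labels and each direction below rests on them as they stand. Mitochondrially encoded genes made up 2.24% and 2.25% of control counts, against 1.80% in KO 1 and 1.296% in KO 2. Separate cultures are not named in the labels, so all p-values rest on the spread between libraries, which may be technical.

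Of the 9 genes, 8 lay lower in both KO libraries than in both controls, and 1, Hnf4a, lay higher in both. Over all genes tested, 32.8% had both KO libraries below both controls and 31.5% had both above. Gata6, Gata4, Sox7, Pdgfra and Thbd fell and Hnf4a rose with an adjusted p below 0.05 (Benjamini-Hochberg over all genes tested, quasi-likelihood test of edgeR), while Sox17, Foxa2 and Dab2 did not pass. These are 5 of 9 genes called lower and 1 of 9 called higher, against 8.57% called lower and 5.76% called higher over all genes tested. Over the 9 genes the median log2 fold change, KO against control, was -1.62, against 0.0055 over all genes tested. In bulk RNA, fewer cells that express a gene and less RNA per cell cannot be told apart, and this holds for every result below.

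**Figure D1:**
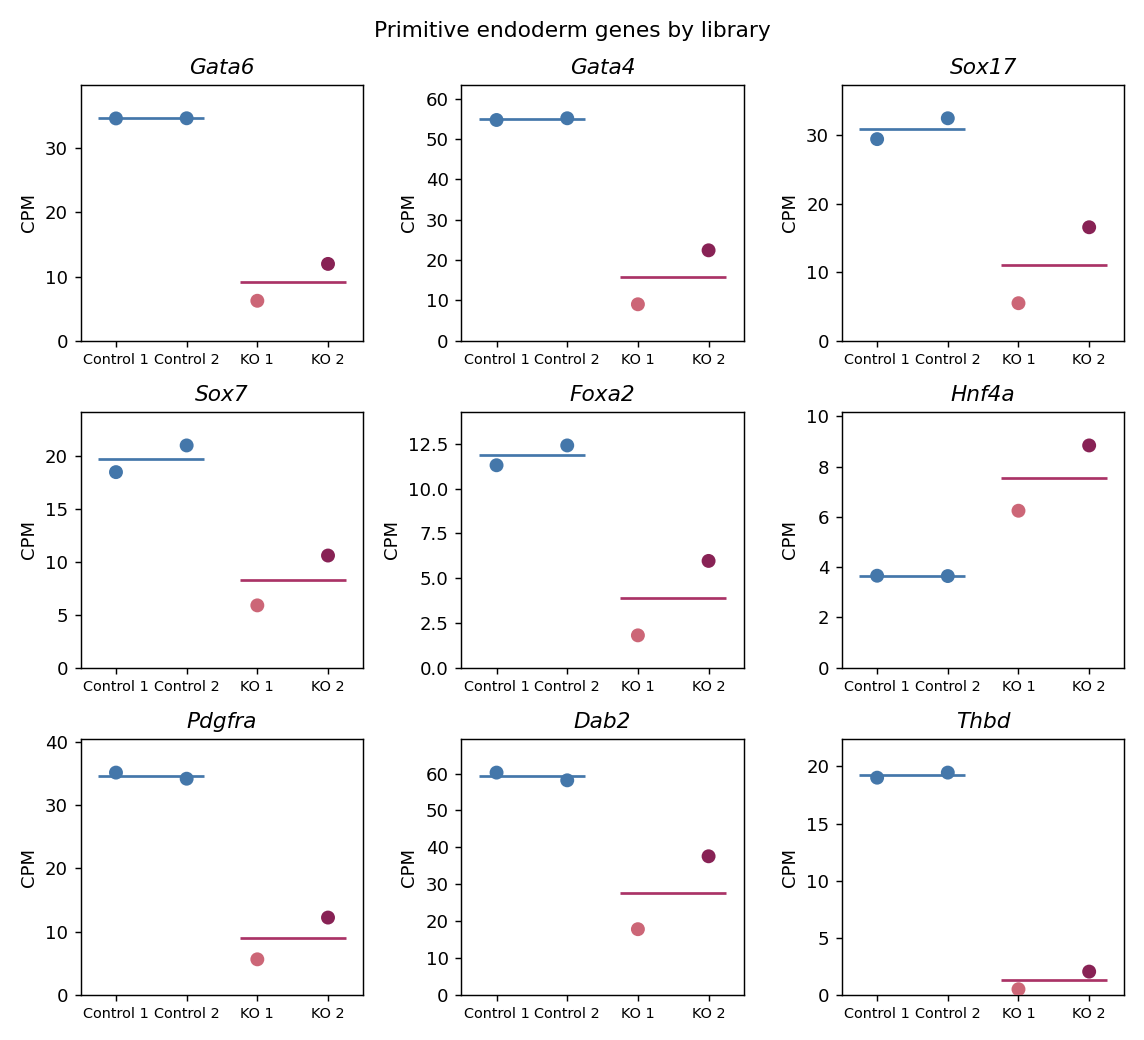
Level of each of the 9 genes in CPM (vertical axes, linear from 0) in control libraries 1 and 2 (blue) and KO 1 and KO 2 (light and dark red), with the mean of each group as a line (n = 2). Hnf4a is the gene whose KO libraries lie above the controls, and KO 2 lies above KO 1 in all 9 panels.

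The GATA factors stood at the head of the set. Gata6, the zinc finger factor that starts the primitive endoderm programme, is on chromosome 18 and had 34.7 CPM in each control, 6.21 CPM in KO 1 and 12.0 CPM in KO 2. The controls were thus nearly equal, and both KO libraries were far below them. It fell 3.83-fold (log2 fold change -1.94 ± 0.28, SE; edgeR adjusted p = 0.013). Gata4, a related factor that comes on later in the lineage and is also used in the heart, stood at 54.8 and 55.2 CPM in the controls, 9.003 CPM in KO 1 and 22.4 CPM in KO 2. It was again even across the controls and lower in the KO libraries, KO 1 more so than KO 2. It fell 3.51-fold (log2 fold change -1.81 ± 0.37, SE; edgeR adjusted p = 0.028). The call of Gata4 ended with no filter on low counts (edgeR adjusted p = 0.28), with the replicate block (0.17) and with the block and a GC-content offset (0.13). Gata6 and Sox7 were called under every alternative that kept all 4 libraries.

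Sox17 and Sox7 encode SOX group F factors, and both act in extraembryonic endoderm as well as in vessels. The controls held 18.5 and 20.98 CPM of Sox7, against 5.88 CPM in KO 1 and 10.6 CPM in KO 2. The groups did not overlap, and the gap between them was larger than the spread within either. Sox7 fell 2.40-fold (log2 fold change -1.26 ± 0.26, SE; edgeR adjusted p = 0.030). Sox17, at 29.4 and 32.5 CPM in the controls, had 5.45 CPM in KO 1 and 16.6 CPM in KO 2. KO 1 and KO 2 differed 3.03-fold here, and the difference from the controls did not pass the test (log2 fold change -1.50 ± 0.44, SE; edgeR adjusted p = 0.068). Without KO 2 the log2 fold change of Sox17 was -2.50, and without KO 1 it was -0.90. Sox17 passed in edgeR once GC content was an offset (adjusted p = 0.047) and with limma-voom (adjusted p = 0.036). It did not pass with DESeq2 (adjusted p = 0.15), with no filter on low counts (edgeR adjusted p = 0.42), with the replicate block (0.22) or with the block and the GC-content offset (0.16). The fold of Sox17 therefore exceeded that of Sox7, while its SE was larger.

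Foxa2 and Hnf4a went opposite ways. Foxa2, a forkhead factor of visceral and definitive endoderm, was at 11.3 and 12.4 CPM in the control libraries, 1.81 CPM in KO 1 and 5.97 CPM in KO 2. Both KO libraries were below the controls, but they were 3.30-fold apart, and the log2 fold change of -1.62 ± 0.46 (SE) did not pass (edgeR adjusted p = 0.063). The GC-content offset and limma-voom each brought it under the threshold, with adjusted p of 0.039 and 0.035. DESeq2 (adjusted p = 0.16) and edgeR with no filter on low counts (adjusted p = 0.34) or with the replicate block (0.062) did not. Without KO 2 the log2 fold change of Foxa2 was -2.71, and without KO 1 it was -0.99. Hnf4a, a nuclear receptor that drives the metabolic and secretory genes of visceral endoderm, was at 3.66 and 3.64 CPM in the control libraries, 6.24 CPM in KO 1 and 8.84 CPM in KO 2. It was the least abundant of the 9 in the controls and higher in both KO libraries. The rise was 2.06-fold (log2 fold change 1.04 ± 0.22, SE; edgeR adjusted p = 0.029). With control replicate 1 left out Hnf4a was not called (edgeR adjusted p = 0.069), nor with control replicate 2 left out (edgeR adjusted p = 0.070).

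Pdgfra encodes the platelet-derived growth factor receptor that marks early primitive endoderm cells and supports their survival. The controls held 35.1 and 34.2 CPM, against 5.62 CPM in KO 1 and 12.2 CPM in KO 2. Its level and its pattern were close to those of Gata6, with KO 1 lowest. Pdgfra fell 3.90-fold (log2 fold change -1.96 ± 0.32, SE; edgeR adjusted p = 0.017), and its call ended with no filter on low counts (edgeR adjusted p = 0.11). Dab2 encodes an endocytic adaptor that endoderm cells need for their polarity and for uptake through megalin. In counts it was the most abundant of the 9, at 60.3 and 58.2 CPM in the controls, 17.8 CPM in KO 1 and 37.6 CPM in KO 2. KO 2 kept 0.635 of the control level, the highest share among the 8 lower genes. Its log2 fold change of -1.10 ± 0.31 (SE) did not pass (edgeR adjusted p = 0.061). Without KO 2 the log2 fold change of Dab2 was -1.73, and without KO 1 it was -0.66. Limma-voom called Dab2 (adjusted p = 0.038). DESeq2 (adjusted p = 0.13) and edgeR with no filter on low counts (adjusted p = 0.37), with the GC-content offset (0.11) or with the replicate block (0.18) did not.

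Thbd encodes thrombomodulin, an anticoagulant surface receptor of parietal endoderm, trophoblast and endothelium. It was at 19.0 and 19.5 CPM in the controls, 0.493 CPM in KO 1 and 2.04 CPM in KO 2, which are 676 and 721 counts against 15 and 56. No other gene of the 9 was brought as close to the lower end of detection. Its log2 fold change was -3.95 ± 0.46 (SE; edgeR adjusted p = 0.0093), and with no filter on low counts the edgeR adjusted p was 0.054. Against the control mean, Thbd was 39.0-fold lower in KO 1 and 9.45-fold lower in KO 2.

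The authors' deposited table of their own comparison gave an adjusted p under 0.05 to the same 6 of the 9 genes, against 17.0% of the 14690 genes with an adjusted p in it. In the authors' deposited table the adjusted p was 0.17 for Sox17, 0.177 for Foxa2 and 0.141 for Dab2. The log2 fold changes in the authors' deposited table were -1.64 for Gata6, -0.93 for Thbd and 0.84 for Hnf4a, each nearer to 0 than the value computed here. Run here on the counts, DESeq2 gave -1.93 for Gata6, -3.92 for Thbd and 1.05 for Hnf4a. The cause of this difference was not tested, so the deposited fold changes are not a like measure of the size of each change.

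Levels can be compared between genes only per exon length, here as CPM per kb of merged exons in GENCODE M21. In the controls, Gata4 led with a mean of 14.1 CPM per kb, followed by Dab2 at 8.07 CPM per kb. Sox17 (6.49 CPM per kb), Sox7 (5.98), Gata6 (5.33), Thbd (5.17) and Foxa2 (5.01) formed a middle group. Within it the 2 control values of Sox17 overlapped those of Sox7, and those of Foxa2 overlapped those of Thbd, so their order is not fixed beyond the spread. Pdgfra (3.46 CPM per kb) and Hnf4a (0.756 CPM per kb) came last. In KO 1 the order changed: Dab2 (2.43 CPM per kb), Gata4 (2.31) and Sox7 (1.78) led, Hnf4a at 1.29 CPM per kb stood above Sox17 (1.14), Gata6 (0.954), Foxa2 (0.762) and Pdgfra (0.561), and Thbd was last at 0.132 CPM per kb. In KO 2, Hnf4a (1.83 CPM per kb) and Gata6 (1.84) were level.

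**Figure D2:**
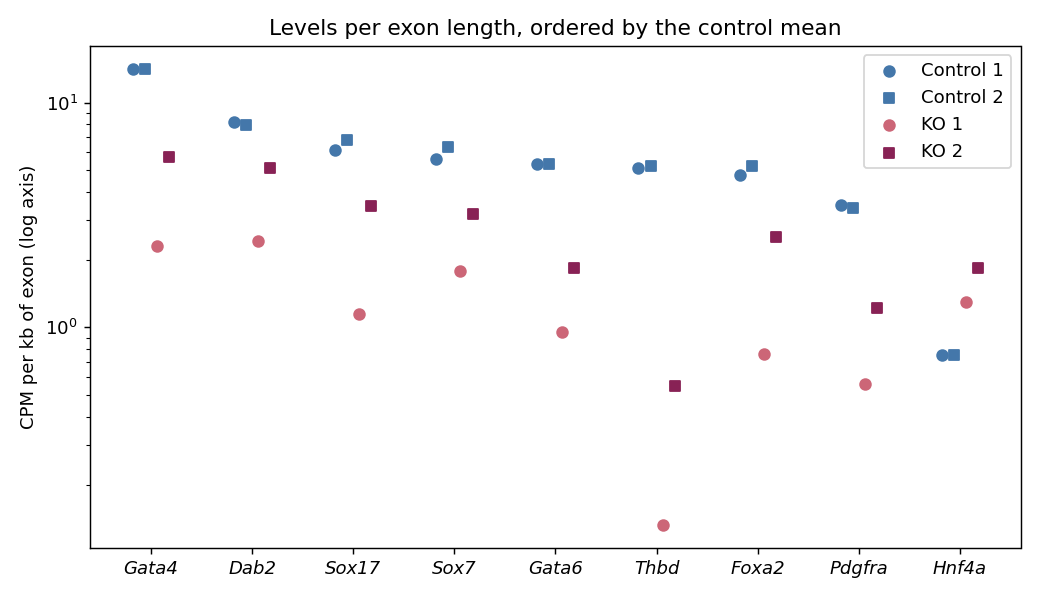
Level of each gene in CPM per kb of exon (vertical axis, log scale) in the 4 libraries, with genes ordered by the control mean from Gata4 (14.1 CPM per kb) to Hnf4a (0.756). Blue marks are controls and red marks are KO libraries, with replicate 1 as circles and replicate 2 as squares.

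Read separately, KO 1 was at or below 1/2 of the control mean in 8 of the 9 genes, against 5.36% of all genes tested, and KO 2 in 4 of the 9, against 6.11%. The 4 genes in KO 2 were Gata6, Gata4, Pdgfra and Thbd. Both comparisons share the same controls, so they are not independent. In KO 1 the level was 0.179 of the control mean for Gata6, 0.164 for Gata4, 0.176 for Sox17, 0.152 for Foxa2 and 0.162 for Pdgfra. These 5 genes thus kept nearly the same share, while Sox7 (0.298) and Dab2 (0.301) kept more and Thbd (0.0256) far less. In KO 2 Thbd again had the lowest share (0.106) and Dab2 the highest (0.635), with 0.345 for Gata6, 0.353 for Pdgfra, 0.407 for Gata4, 0.503 for Foxa2, 0.535 for Sox17 and 0.537 for Sox7 between them. Summed over the 8 lower genes, KO 1 held 52.3 CPM and KO 2 119.3 CPM, which are 0.197 and 0.45 of the control mean.

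KO 2 stood above KO 1 in all 9 genes, against 49.6% of all genes tested. The ratio was at least 2 in 6 of the 9, against 2.47% of all genes tested. It ran from 1.42 for Hnf4a (95% interval 1.17 to 1.72) to 4.13 for Thbd (2.31 to 7.87), with 2.49 for Gata4 (2.16 to 2.88) and 3.30 for Foxa2 (2.42 to 4.57). Intervals are exact conditional binomial and cover counting error only. With 1 library on each side this compares 2 libraries and has no replicate check. The 9 genes were chosen, and the KO libraries set apart, with earlier results of these data known. The counts of genes above therefore describe these libraries and are no test. The controls differed from each other by far less, with a ratio of control 2 to control 1 between 0.965 for Dab2 and 1.14 for Sox7. Hnf4a, the gene that rose, was also higher in KO 2 than in KO 1, so the KO library with less of a fall in the other 8 genes had the larger rise in Hnf4a. KO 1 also held more of the ribosomal RNA gene CT010467.1, at 0.862% of counts against 0.308% to 0.353% in the other libraries, and KO 2 the smallest mitochondrial share given above. Their part in the result was not tested.

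**Figure D3:**
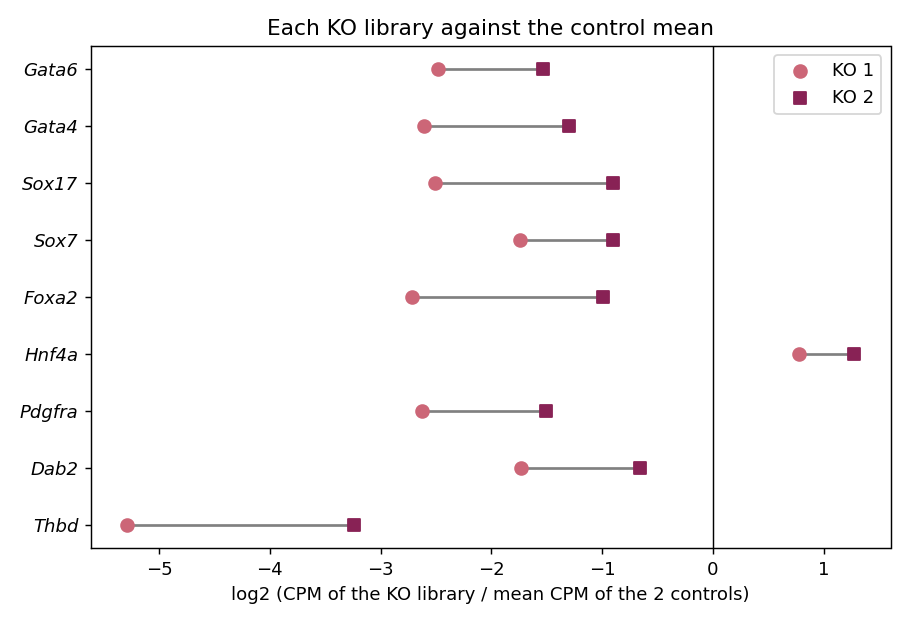
The log2 ratio of each KO library to the mean of the 2 controls (horizontal axis) for the 9 genes, with KO 1 as circles and KO 2 as squares joined by a line, and 0 marking the control mean. KO 1 lies to the left of KO 2 for every gene, from Thbd at -5.29 and -3.24 to Hnf4a at 0.77 and 1.28.

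Other endoderm genes, from lists chosen with earlier results of these data known, divided by tissue. Of 44 tested genes of the 52 listed, 15 fell and 3 rose, against 8.57% called lower and 5.76% called higher over all genes tested, the shares to which the counts of this and the following lists compare. Parietal endoderm and its basement membrane held most of the falls: 12 of 17 tested genes fell in edgeR, with a median log2 fold change of -1.41, or -2.04 in KO 1 and -0.95 in KO 2. None rose, whether by edgeR, DESeq2, limma-voom or an unadjusted edgeR p under 0.05. Fst, which encodes the activin antagonist follistatin, was at 33.0 and 33.3 CPM in the control libraries, 3.35 CPM in KO 1 and 5.89 CPM in KO 2. Stra6, a receptor for retinol uptake, fell 3.56-fold, and Krt8, a keratin of the first epithelia, 3.33-fold. Of these 17 genes 16 had more RNA in KO 2 than in KO 1, as all 9 primitive endoderm genes did.

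Visceral endoderm genes were mixed. Of 17 tested, 3 fell and 3 rose, with a median log2 fold change of 0.24. The falls were Bmp2, a BMP ligand (log2 fold change -2.94), Tfpi, an inhibitor of coagulation (-1.13), and Lrp2, which encodes megalin (-0.42). The rises were Apoe, a lipid carrier (1.13), Amn, which anchors the uptake receptor cubilin (1.09), and Spink1, a protease inhibitor (0.67). Amn was at 2.73 and 3.27 CPM in the control libraries, 4.86 CPM in KO 1 and 7.93 CPM in KO 2, so that KO 2 was the highest library, as for Hnf4a. Afp and Ttr, which encode secreted proteins of visceral endoderm, were under 1 CPM in each library, while Apoe, also secreted, was at 456 and 423 CPM in the controls, 987 CPM in KO 1 and 939.8 CPM in KO 2.

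None of the 5 tested genes of anterior visceral endoderm and none of the 5 of definitive endoderm passed the edgeR test. At an unadjusted p under 0.05 there was 1 in each list (Dkk1, lower, and Foxa1, higher), and DESeq2 and limma-voom each called 1 of the former and 0 of the latter. Lefty1, a Nodal inhibitor and the most abundant of the former, was at 55.8 and 70.7 CPM in the control libraries, 22.2 CPM in KO 1 and 74.5 CPM in KO 2, so KO 2 lay above the controls and KO 1 below. Trh, the hormone precursor gene that leads the latter list, was at 205 and 261 CPM in the control libraries, 179.6 CPM in KO 1 and 387 CPM in KO 2. Both genes shared the higher level in KO 2, while their KO and control libraries overlapped.

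**Figure D4:**
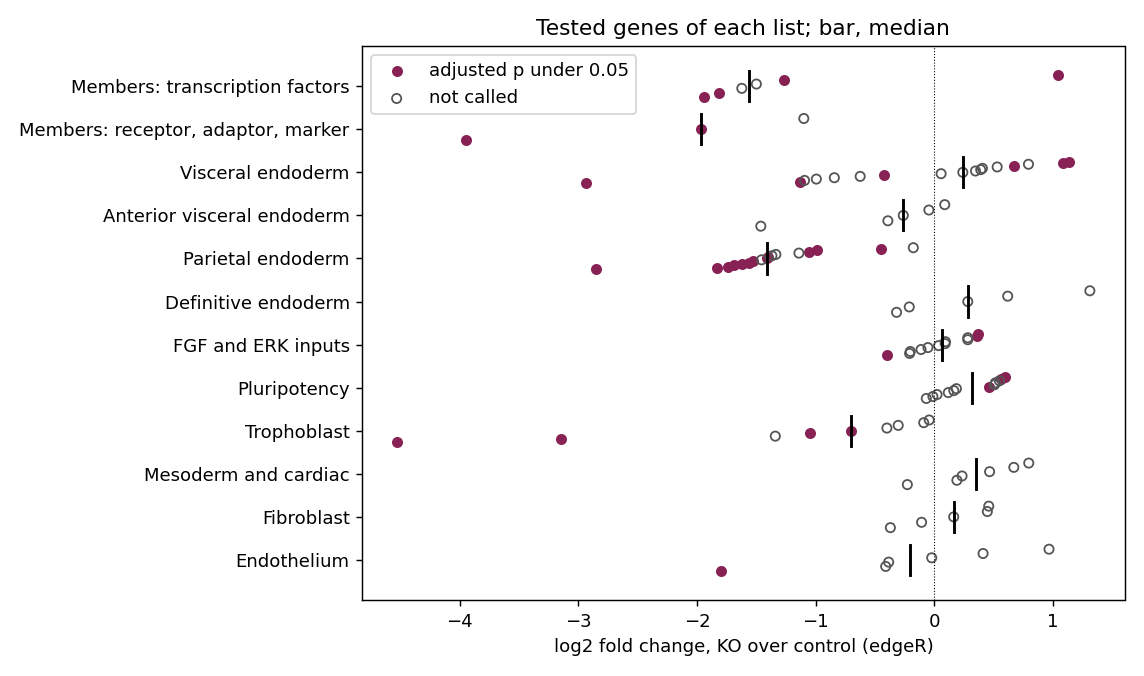
The log2 fold changes (KO over control, horizontal axis) for every tested gene of each list, with filled points for an adjusted p under 0.05 in edgeR, open points for genes not called and a bar at the median. Parietal endoderm (median -1.41) lies with the primitive endoderm genes to the left, while visceral endoderm (median 0.24) spreads over both sides of 0.

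The FGF and ERK genes that act upstream of primitive endoderm showed small differences. Of 12 tested, 2 rose and 1 fell, the latter near the 8.57% called lower over all genes, with a median log2 fold change of 0.06. Fgf4, the ligand, was at 223 and 215 CPM in the control libraries, 202 CPM in KO 1 and 265 CPM in KO 2. Fgfr1, the receptor that inner cell mass cells share, rose (log2 fold change 0.36), as did Etv5, a target of ERK (0.37). Grb2, the adaptor whose loss blocks primitive endoderm in the embryo, fell by 0.40 on the log2 scale. It lies on chromosome 11, whose tested genes had a median of -0.46.

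Among 12 pluripotency genes 3 rose (Esrrb, Tfcp2l1 and Tbx3, by log2 fold changes of 0.56, 0.60 and 0.46) in edgeR, while DESeq2 called 6 higher. None fell in either tool, in limma-voom or at an unadjusted edgeR p under 0.05. The 3 were named after their values were seen. Tbx3, which is also used in primitive endoderm, was at 294 and 288 CPM in the control libraries, 409.9 CPM in KO 1 and 389 CPM in KO 2. Nanog, the opponent of GATA6, was at 478 and 476 CPM in the control libraries, 496 CPM in KO 1 and 415 CPM in KO 2, with a log2 fold change of -0.07 ± 0.11 (SE) that did not pass (edgeR adjusted p = 0.69). Sox2 and Pou5f1, at log2 fold changes of 0.16 and 0.52, did not pass either.

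Several of the 9 genes are also active in other tissues, so markers of these were read as whole lists. In trophoblast, 4 of 9 tested genes fell in edgeR, and none rose there, in DESeq2, in limma-voom or at an unadjusted edgeR p under 0.05. The falls were Hand1, Gata3, Krt7 and Plac1, named after their values were seen, and the summed level of the 10 listed genes was 100.3 and 104.9 CPM in the controls and 81.4 and 83.1 CPM in KO 1 and KO 2. Most of each sum was Tfap2c, which was not called, at 56.6 and 61.2 CPM in the controls, 55.0 CPM in KO 1 and 59.4 CPM in KO 2, so the sum shows less of a fall than the other genes together had. For Plac1 the controls held 39 and 54 counts, KO 1 2 counts and KO 2 1 count. For endothelium, which uses Thbd, Sox7 and Sox17, the sum of 8 genes was 285 and 257 CPM in the controls and 268 and 196 CPM in KO 1 and KO 2. Most of each sum was Pecam1, which was not called. It was at 198 and 177 CPM in the controls, 163 CPM in KO 1 and 124 CPM in KO 2. Pecam1 lies on chromosome 11, whose tested genes had a median log2 fold change of -0.46. Cdh5, which encodes the cadherin of endothelial junctions, was the 1 gene of 6 tested that fell, from 2.45 and 2.75 CPM to 0.526 and 0.982 CPM. It was named after its values were seen. At an unadjusted edgeR p under 0.05 the list went both ways, with 2 genes higher (Tie1 and Vwf) and 2 lower (Pecam1 and Cdh5). Emcn had 0 counts in each library, which allows up to 3 counts per library.

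For mesoderm and heart, which use Gata4, Gata6 and Pdgfra, the sum of 10 genes was 11.3 and 11.6 CPM in the controls and 11.6 and 13.0 CPM in KO 1 and KO 2, and none of 6 tested genes was called by edgeR, DESeq2 or limma-voom or had an unadjusted p under 0.05. Kdr, the most abundant of them, encodes a VEGF receptor and had a log2 fold change of 0.23. For fibroblasts, which express Pdgfra, the sum of 9 genes was 25.2 and 24.1 CPM in the controls and 33.7 and 27.0 CPM in KO 1 and KO 2, with none of 5 tested genes called by edgeR, DESeq2 or limma-voom and 1 (Thy1, higher) at an unadjusted p under 0.05. Lum had 0 counts in each library. The part of trophoblast and endothelial RNA in the results on Thbd, Sox7 and Sox17 was not tested.

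The title of the series concerns unmethylated CpG islands, so the bases upstream of the genes are shown with each CpG in capitals and all other bases in lower case. RefSeq promoter windows on GRCm38.p6 held 4 of the 9 genes, with 8 start sites. Printed are Pdgfra and the outer Dab2 start, whose windows have few CpGs, 2 of the 3 Foxa2 starts, which differ most, and the outer start of Hnf4a, the gene that rose. Each runs 5′ to 3′ on the gene's strand and ends before the start site or the first annotated exon base. The windows lie at chr5:75152001-75152250 (plus strand) for Pdgfra, chr2:148046970-148047219 (minus) for the outer Foxa2 start, chr2:148045949-148046198 (minus) for the next Foxa2 start, chr15:6299539-6299787 (plus) for Dab2 and chr2:163506607-163506807 (plus) for the outer Hnf4a start.
Pdgfra: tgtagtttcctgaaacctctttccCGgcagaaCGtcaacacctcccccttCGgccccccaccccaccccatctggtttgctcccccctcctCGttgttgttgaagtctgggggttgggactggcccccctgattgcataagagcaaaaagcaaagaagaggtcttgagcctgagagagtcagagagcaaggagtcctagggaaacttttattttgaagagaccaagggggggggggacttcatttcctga
Foxa2 outer start: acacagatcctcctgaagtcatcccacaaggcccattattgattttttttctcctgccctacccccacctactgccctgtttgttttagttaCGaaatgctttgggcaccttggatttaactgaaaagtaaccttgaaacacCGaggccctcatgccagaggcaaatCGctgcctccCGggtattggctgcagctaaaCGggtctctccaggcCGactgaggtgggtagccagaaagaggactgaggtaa
Foxa2 next start: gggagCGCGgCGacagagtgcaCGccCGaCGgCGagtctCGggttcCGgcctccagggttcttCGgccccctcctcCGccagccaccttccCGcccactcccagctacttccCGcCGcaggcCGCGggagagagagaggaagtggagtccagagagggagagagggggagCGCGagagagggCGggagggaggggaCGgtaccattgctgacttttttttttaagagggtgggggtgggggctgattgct
Dab2 outer start: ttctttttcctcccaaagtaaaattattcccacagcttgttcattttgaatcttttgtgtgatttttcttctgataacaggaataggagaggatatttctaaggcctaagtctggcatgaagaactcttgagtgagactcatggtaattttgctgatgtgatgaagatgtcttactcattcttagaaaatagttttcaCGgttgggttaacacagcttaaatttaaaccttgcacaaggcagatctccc
Hnf4a outer start: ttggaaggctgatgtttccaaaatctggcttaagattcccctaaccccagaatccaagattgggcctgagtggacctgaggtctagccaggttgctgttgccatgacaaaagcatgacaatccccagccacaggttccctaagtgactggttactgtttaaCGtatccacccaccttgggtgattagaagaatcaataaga
In the full windows of 250 bases, which at Hnf4a and Dab2 reach into annotated exons, the ratio of observed to expected CpGs was 0.216 at Pdgfra, 0.376 at the outer Foxa2 start and 0.732 at the next, and 0.183 at the outer Hnf4a start, against a median of 0.373 over 32851 windows of that length. At Dab2 it was 0.237 at the outer start and 0.757 at the inner start. Foxa2 and Dab2 each had a start in sequence richer in CpG than the median window, while the window of Pdgfra and both of Hnf4a were poorer. A count over a whole gene does not tell which start was used, and methylation and KAT6A binding are not measured in these files. Of the letters searched on both strands, the GATA site AGATAA was found in the windows of the outer Hnf4a start and the innermost Foxa2 start, as in 9.99% of all windows. The Hnf4a match crosses into the 49 annotated exon bases at the end of that window, which are not printed, so it is not within the sequence shown. The SOX core ACAAT was found before the outer Hnf4a start alone, as in 27.7% of all windows, and the forkhead site TGTTTAC in none of the 8, against 3.17% of all windows. The matches did not overlap each other, and they are descriptions of these letters only. Other forms of the GATA, SOX and forkhead sites were not searched, so a window without a match may still hold such a site.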

How the data were processed

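Messenger RNA was sequenced in 4 libraries, 2 per group, and groups and replicate numbers came from the sample titles. The authors deposited whole-number read counts per gene symbol for each library, and featureCounts and DESeq2, with no version, appear in the submitters' processing notes. The aligner, genome build, gene annotation and strandedness of counting, not given in the sources used here, remain unknown. Annotated antisense and overlapping genes at the 9 loci that are in the tables had at most 0.081 CPM. The deposited normalized signal equals the counts divided by 1 factor per library. In the authors' deposited table of their comparison, which has no header, the columns were read from their values as a mean signal, a log2 fold change with its standard error, a Wald score, a p-value and an adjusted p-value.

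Counts were fitted in R 4.3.3 with edgeR 4.0.16 (filterByExpr, TMM, robust quasi-likelihood test, group only) over 16112 genes. Calls needed a Benjamini-Hochberg adjusted p below 0.05, and standard errors were taken as the absolute log2 fold change over the root of F. The procedure was tested on simulated data. The common biological coefficient of variation was 0.112. Estimated within each pair alone, it was 0.0393 in the controls and 0.16 in the KO libraries, while the fit assumes the same spread in both groups. Exon lengths, positions and transcript GC content came from GENCODE M21 on GRCm38, and promoter sequences from RefSeq. Alternatives used RLE scaling, other filters, DESeq2 1.42.0, limma-voom (limma 3.58.1), a replicate block, a GC-content offset (lowess span 0.3) and each library left out. With tested genes in 5 equal groups by transcript GC content, the median log2 fold change ran from -0.21 (lowest GC) to 0.23 (highest). The offset moved genes both ways: Dab2 went from -1.10 to -0.90 and Foxa2 from -1.62 to -1.81. A group left with 1 library is assumed to vary as the other does.

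The 9 genes and all lists were chosen with earlier results of these data known. Named were the 9 genes, up to 3 called genes per direction and endoderm or FGF list with a mean of at least 1 CPM, or the most abundant gene where none was called, Pou5f1, Sox2 and Nanog, and the most abundant gene of each list of other cell types (Tfap2c with a log2 fold change of -0.04, Kdr 0.23, Thy1 0.46 and Pecam1 -0.38, none called by edgeR).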

Additional observations from a re-analysis of the deposited data

How the results depend on the processing

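No alternative reversed the direction of any of the 9 genes. Of the 5 genes called lower, 2 were called with no low-count filter, and limma-voom called 8. Without each library in turn, 8 to 8 were called lower and 0 to 1 higher. The number of other endoderm genes called without each library ran from 1 to 10 higher and from 14 to 27 lower. Over all genes it ran from 284 to 4037 higher and from 660 to 4387 lower. Without a KO library the spread comes from the control pair alone, so these calls are more numerous by construction. Without KO 2 the log2 fold change of Gata4 was -2.61, of Pdgfra -2.62, of Gata6 -2.48, of Sox7 -1.75 and of Thbd -5.28, and without KO 1 they were -1.30, -1.503, -1.54, -0.90 and -3.24. That of Hnf4a was 0.77 without KO 2 and 1.27 without KO 1.

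Replicate numbers are shared by the groups, but nothing says that they pair libraries, and the deviations of same-numbered libraries correlated at 0.0945 across genes. With the replicate block 1613 genes were called higher and 2147 lower, Gata4 was not called (edgeR adjusted p = 0.17), and the other 5 calls held. With the replicate block and the GC-content offset 1803 genes were called higher, Gata4 was not called (edgeR adjusted p = 0.13) and Foxa2 was (edgeR adjusted p = 0.038). The cause of these changes was not tested. Of the pluripotency genes DESeq2 called 6 higher, against 3 by edgeR. The ratios of KO 2 to KO 1 stayed within their counting intervals under RLE scaling. Depth limits Thbd most, with 15 counts in KO 1.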

Other observations

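Members of the set lie near each other in the genome. In GENCODE M21 on GRCm38, Gata4 (chromosome 14, 63198922 to 63271692) and Sox7 (chromosome 14, 63943673 to 63950732) are 672 kb apart, and of 6 tested genes between them none was called by edgeR, DESeq2 or limma-voom, while 2 (Tdh and Xkr6, higher) and 1 (Fam167a, lower) had an unadjusted p under 0.05. These neighbours include Tdh, at 361 and 373 CPM in the controls, 422 CPM in KO 1 and 487 CPM in KO 2, and Mtmr9, at 75.0 and 75.9 CPM in the controls, 72.3 CPM in KO 1 and 75.5 CPM in KO 2. Foxa2 (chromosome 2, 148042877 to 148046969) and Thbd (chromosome 2, 148404466 to 148408188) are 357 kb apart, and none of the 3 symbols between them was expressed highly enough to be tested. Sox17 (chromosome 1, 4490931 to 4497354), Pdgfra (chromosome 5, 75152292 to 75198215), Dab2 (chromosome 15, 6299788 to 6440712) and Hnf4a (chromosome 2, 163506808 to 163572910) have no other gene of the set nearby.

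The genes whose levels ran most like those of the 6 called genes were found by the distance between profiles over the 4 libraries, on the scale of log2(CPM + 0.5) minus its control mean, among the 12698 candidates, which had a mean of 1 CPM or more. Nearest to Gata6 was Flrt3 (distance 0.0754), at 34.4 and 33.4 CPM in the controls, 6.37 CPM in KO 1 and 11.7 CPM in KO 2, then St3gal1 (0.116) and Serpinb9b (0.131). Nearest to Gata4 were Krt8 (0.0888), Atf3 (0.119) and Dram1 (0.128), and to Pdgfra Tns4 (0.113), Arsi (0.148) and Dram1 (0.1496). Sox7 was followed by Cd200 (0.134), Adgrg6 (0.145) and Lgals9 (0.154). Nearest to Hnf4a was Nos3 (0.0512), at 4.502 and 4.508 CPM in the controls, 7.92 CPM in KO 1 and 10.7 CPM in KO 2, then Nphs1os (0.116) and Stmn1 (0.119). Thbd had no close neighbour, with H19 (0.536), Nog (0.606) and Flrt2 (1.14) nearest. These distances rest on 4 libraries and are descriptions of them.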
